A study of Mus musculus with 15 samples.

Results

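The SOXC, SOXD and SOXE genes encode transcription factors of the SRY-related HMG-box family. The members are Sox4, Sox11 and Sox12 (SOXC), Sox5, Sox6 and Sox13 (SOXD), and Sox8, Sox9 and Sox10 (SOXE). They were taken by gene symbol, and all 9 were found among the 26263 named genes of the count files and were among the 15261 genes that passed the filter on low counts. RNA was sequenced from neural stem and progenitor cells of the mouse dorsal telencephalon, taken at E12.5 (the embryonic day) and grown as floating neurospheres with EGF and FGF. The design asks how loss and gain of Kat6b, which encodes a histone acetyltransferase, change gene expression. The knockout group, KO_B6, holds 4 libraries of Kat6b-/- cells on the C57BL/6 background. Its control, WT_B6, holds 3 wild-type libraries of that background. The transgenic group, Tg_FvB, holds 6 libraries of Tg(Kat6b) cells from a cross of FVB with BALB/c, since the transgene was not viable on an inbred one. Its control, WT_FvB, holds 2 wild-type libraries of that cross. The labels name neither the promoter of the transgene nor the deleted part of Kat6b.

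All SOX factors bind DNA through the HMG box, which bends the double helix, and members of a subgroup resemble each other most inside that box. SOXC factors are activators known from immature neurons and other differentiating cells. SOXD factors carry a coiled coil in place of an activation domain and often act together with SOXE factors, while SOXE factors are known from glia, neural crest and cartilage.

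The stretch that codes for the start of the HMG box shows how closely the genes are related and bears on whether their reads can be told apart. It is printed for 1 pair of each subgroup, chosen because the RNA levels of the pair differed in direction or in size. Capitals mark the 31 of 60 bases that are identical in all 9 members. The sequences are read 5′ to 3′ from the GENCODE transcripts of GRCm38, which is the assembly of mm10.
Sox4: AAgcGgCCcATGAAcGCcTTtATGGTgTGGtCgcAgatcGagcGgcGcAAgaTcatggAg
Sox11: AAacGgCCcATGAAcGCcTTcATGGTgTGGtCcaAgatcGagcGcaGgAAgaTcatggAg
Sox5: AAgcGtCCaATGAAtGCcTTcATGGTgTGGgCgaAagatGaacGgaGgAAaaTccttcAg
Sox13: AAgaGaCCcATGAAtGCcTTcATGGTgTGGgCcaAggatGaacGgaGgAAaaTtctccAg
Sox9: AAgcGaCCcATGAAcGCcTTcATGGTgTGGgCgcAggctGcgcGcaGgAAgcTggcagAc
Sox10: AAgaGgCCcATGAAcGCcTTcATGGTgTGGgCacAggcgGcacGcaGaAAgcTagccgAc
These stretches lie at chr13:28952785-28952844 (Sox4, minus strand), chr12:27342202-27342261 (Sox11, minus strand) and chr6:143841217-143841276 (Sox5, minus strand). The other three lie at chr1:133385509-133385568 (Sox13, minus strand), chr11:112782900-112782959 (Sox9, plus strand) and chr15:79163345-79163404 (Sox10, minus strand). Each is coding sequence within 1 exon. Over the 237 bases of the box that were compared, members of the same subgroup shared 81.4% to 89.5% of bases in 9 pairs. Members of different subgroups shared 53.2% to 71.7% in 27 pairs. The longest run of bases shared by any pair was 48, between Sox4 and Sox11, which is shorter than the reads of 66 bp. No stretch of 66 bases of any member occurred on the same strand of another gene's transcripts.

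Opposite strands are another matter, because the labels do not say whether the libraries or the counting kept strand. Sox4 (chr13:28948919-28953699) is overlapped by the antisense gene Gm26735 over 2616 of its 4795 exonic bases in GENCODE. Sox5 (chr6:143828425-144782287) is overlapped by Sox5os1 over 1330 of 14376 bases. Sox8 (chr17:25565893-25570686) is overlapped by 2810468N07Rik over 329 of 3118 bases. Reads of these partners cannot be told from reads of the SOX gene without strand. No exon of another gene overlaps an exon of Sox11 (chr12:27334268-27342718), Sox12 (chr2:152393611-152398046), Sox6 (chr7:115470872-116040776), Sox13 (chr1:133382300-133424459), Sox9 (chr11:112782210-112787757) or Sox10 (chr15:79154913-79164490). Genes within introns were not examined. The reverse complement of some Sox5 stretches of 66 bases also occurs in transcripts of Fcgr2b.

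Several libraries stood apart or went against their labels. Total counts over named genes ran from 39413502 to 62819028 in KO_B6 and from 18483747 to 31067022 in WT_B6, so every knockout library was deeper than every control. They ran from 12336303 to 41746720 in Tg_FvB and from 19930942 to 21417513 in WT_FvB. The sample titles call the Tg_FvB libraries knockouts, whereas the genotype field gives the transgene, which was followed here. Tg_FvB replicates 5 and 6 have count columns with a wild-type heading, and these 2 libraries stood between the backgrounds on the first principal component (47.9% of the variance). Tg_FvB replicate 4, the library with the fewest counts, lay beside the WT_FvB libraries on that component, at 52.5 against 51.4 and 50.9. One litter and embryo number is given to both WT_B6 replicate 1 and WT_FvB replicate 2. Within groups, some libraries were nearly identical, with a pairwise coefficient of biological variation under 0.05. This held for all 3 WT_B6 libraries, for KO_B6 replicates 2 and 3, for both WT_FvB libraries and for 2 pairs among Tg_FvB replicates 1 to 3. They still differed by more than sampling noise and were kept as separate libraries. Summing them left 9 profiles, and results with that sum are given for each comparison. In the sum WT_B6 and WT_FvB are each 1 profile, so no spread within either control is measured there. By the labels every library of a group comes from a different embryo, the nearly identical ones included, and these span more than 1 litter in KO_B6, WT_B6 and Tg_FvB. The labels do not say that replicates are separate cultures, so p-values measure the spread between these libraries, which may be technical. Each gene's spread was fitted over all 15 libraries, so p-values for loss also draw on the spread within Tg_FvB and WT_FvB.

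Kat6b itself averaged 63.4 ± 2.22 CPM in KO_B6 and 84.2 ± 0.778 CPM in WT_B6 (SD, n = 4 and 3). It averaged 242.8 ± 54.2 CPM in Tg_FvB and 53.1 ± 1.80 CPM in WT_FvB (SD, n = 6 and 2). Every Tg_FvB library, replicates 5 and 6 included, had 139.6 CPM or more, and neither WT_FvB library exceeded 54.4 CPM. The knockout was thus seen only as a log2 fold change of -0.41 ± 0.17 (SE; edgeR quasi-likelihood F-test, Benjamini-Hochberg adjusted p = 0.0571), and whether the counted reads lie outside the deleted part is not known from the labels. The transgene gave 2.19 ± 0.21 (adjusted p = 0.000238). The 8 stem cell markers were each at 28.4 CPM or more in every library. Of the dorsal telencephalon markers, Emx2, Lhx2 and Pax6 were present, but Emx1 did not exceed 0.128 CPM. The summed level of 7 microglial markers was at most 0.456 CPM, and C1qa and C1qb were at 0 in every library. Endothelial markers summed to at most 2.37 CPM and mesenchymal markers to at most 4.62 CPM. Neuron markers were not low as a set. They summed to 924 CPM or more in every library, with Map2 alone at 845 CPM or more.

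The 9 members covered a wide range of RNA levels. Levels of different genes were compared as CPM (library-scaled counts) per kilobase of the deposited gene length, written CPM per kb, with CPM scaled by edgeR's TMM factors. By the deposited lengths, Sox4 was the highest member in every group, followed by Sox8 and then Sox9. The GENCODE exons of Sox4 cover 4795 bases against a deposited 2967, and those of Sox8 cover 3118 against 2999. The lead of Sox4 over Sox8 therefore depends on the length used. Sox5 and Sox6 also have longer GENCODE exons, at 14376 and 14832 bases against 7334 and 8486. Sox4 averaged 126 ± 11.8 CPM per kb in KO_B6 and 320.0 ± 25.2 in WT_B6, and 130.1 ± 43.7 in Tg_FvB and 109 ± 4.38 in WT_FvB. In WT_B6 the order went on with Sox6, Sox12, Sox10, Sox11, Sox5 and Sox13, and only Sox12 and Sox10 overlapped with their neighbour. In KO_B6 Sox11 moved ahead of Sox12 and Sox6, at 25.8, 25.5 and 23.5 CPM per kb, and these 3 overlapped. In WT_FvB the lowest members were Sox5 and Sox10, at 6.49 and 6.40 CPM per kb, which overlapped. In Tg_FvB most neighbours overlapped, and Sox10 stood at 14.6 ± 3.82 CPM per kb, ahead of Sox13 and Sox5.

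**Figure D1:**
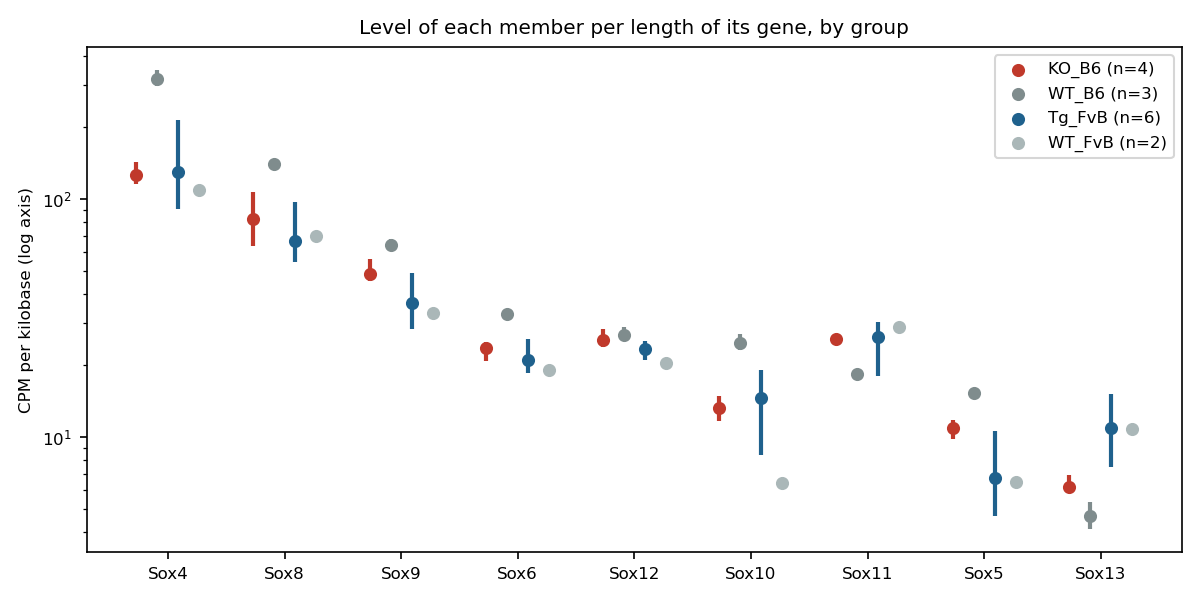
Mean level of each member in CPM per kilobase on a log axis, by group, with vertical lines from the lowest to the highest library. With the deposited lengths, Sox4 is the highest member in all 4 groups, and Sox10 is lowest in WT_FvB at 6.40 CPM per kb.

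The members together reached 362 ± 35.03 CPM per kb in KO_B6, 648 ± 38.8 in WT_B6, 336 ± 67.9 in Tg_FvB and 304 ± 5.02 in WT_FvB. By the deposited lengths, Sox4 supplied 34.9% ± 0.464 of that sum in KO_B6, against 49.4% ± 0.939 in WT_B6. It supplied 38.0% ± 4.44 in Tg_FvB and 35.8% ± 0.847 in WT_FvB. Sox4 thus held a larger share in each WT_B6 library than in any library of the other groups. In these bulk samples, fewer cells of a type and less RNA per cell cannot be told apart.

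With loss of Kat6b, 7 of the 9 members passed the test, 1 higher and 6 lower, where 45.8% of all 15261 genes tested passed it (24.8% higher and 20.9% lower). The libraries of KO_B6 and WT_B6 did not overlap for 8 members, 2 higher and 6 lower, against 56.3% of all genes (29.3% higher and 27.0% lower). The median log2 fold change of the 9 was -0.48, against 0.02 over all genes. With gain of Kat6b, 1 of 9 members passed, against 1.85% of all genes, and it was higher (0.688% of all genes were higher and 1.17% lower). The libraries of Tg_FvB and WT_FvB did not overlap for 2 members, both higher, against 16.0% of all genes (7.97% higher and 8.01% lower). The median was 0.13, against 0.01 over all genes. The effect of loss minus the effect of gain passed for 6 members, 1 higher and 5 lower, against 37.3% of all genes (19.5% higher and 17.8% lower). When nearly identical libraries were summed, no member passed in any comparison, and of all genes 5 passed for loss and 0 for gain (unadjusted p under 0.05 for 3464 and 471 genes, edgeR). DESeq2 on the unsummed counts called 722 genes for gain, against 283 with edgeR.

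**Figure D2:**
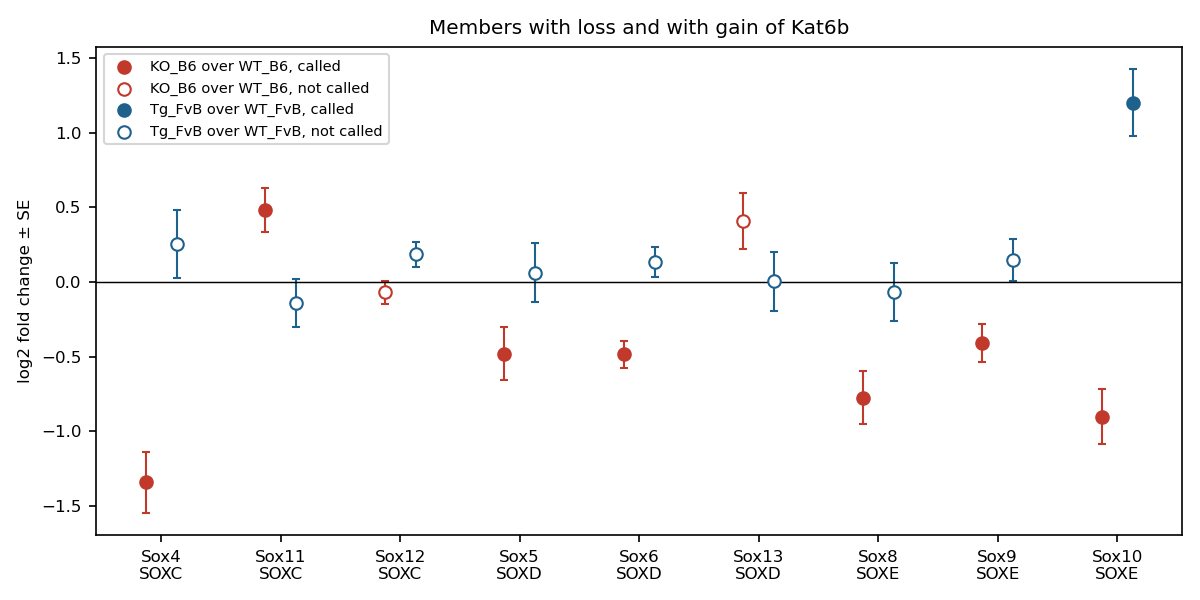
Log2 fold change with its SE for each member, KO_B6 over WT_B6 in red and Tg_FvB over WT_FvB in blue. Filled points passed the test at an adjusted p under 0.05; Sox4 with loss (-1.34) and Sox10 with gain (1.20) are the extremes.

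Among the SOXC genes, loss of Kat6b moved Sox4 and Sox11 in opposite directions. Sox4, an activator that with Sox11 is known from newly formed neurons and from oligodendrocyte precursors, stood at 423, 376, 355 and 343 CPM in KO_B6, against 1032, 887 and 929 CPM in WT_B6. Every knockout library lay far below every control. The log2 fold change was -1.34 ± 0.21 (SE, adjusted p = 0.000133), a ratio of means of 0.394.
With nearly identical libraries summed it was -1.35 (adjusted p = 0.113). In Tg_FvB, Sox4 ranged from 269 to 636 CPM with a median of 342 CPM, against 314 and 333 CPM in WT_FvB. The groups overlapped, with replicate 5 highest and replicate 4 lowest. This gave a log2 fold change of 0.25 ± 0.22 (SE, adjusted p = 0.568), and of -0.026 without Tg_FvB replicates 5 and 6. The effect of loss minus that of gain was -1.60 ± 0.31 (SE, adjusted p = 0.00155). The part of the antisense gene Gm26735 in the Sox4 results was not tested.

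Sox11, the closest relative of Sox4 in the box, rose in the knockout. Its level was 205, 219, 223 and 225 CPM in KO_B6, against 163, 153 and 151 CPM in WT_B6. All knockout libraries lay above all controls, and the log2 fold change was 0.48 ± 0.15 (SE, adjusted p = 0.0163, and 0.380 with libraries summed). In Tg_FvB it ranged from 152 to 257 CPM with a median of 245 CPM, against 241 and 248 CPM in WT_FvB. Tg_FvB replicates 5 and 6 were the low ones, and the other 4 lay close to the wild types. For gain the log2 fold change was -0.14 ± 0.16 (SE, adjusted p = 0.662), and it was 0.029 without these 2 libraries. The difference of effects was 0.62 ± 0.22 (SE, adjusted p = 0.0341), and the call was lost once litter was in the model (adjusted p = 0.198). It was also lost without KO_B6 replicate 2, 3 or 4, any 1 WT_B6 library or either WT_FvB library (0.0511 to 0.121), and the Sox11 call for loss without WT_B6 replicate 2 or 4 (0.0662 and 0.0708). Per length, the ratio of Sox4 to Sox11 averaged 4.92 ± 0.683 in KO_B6, against 17.3 ± 0.785 in WT_B6, and 5.41 ± 2.91 in Tg_FvB, against 3.77 ± 0.0714 in WT_FvB.

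Sox12, a weaker activator of the same subgroup that is widely expressed, varied least of the members over the 15 libraries, with an SD of 0.15 in log2 CPM. It stood at 126, 113, 106 and 108 CPM in KO_B6, against 128, 115 and 114 CPM in WT_B6, and the groups overlapped. Its log2 fold change was -0.07 ± 0.07 (SE, adjusted p = 0.467). In Tg_FvB it ranged from 93.3 to 112 CPM with a median of 102 CPM, against 92.5 and 89.7 CPM in WT_FvB. All transgenic libraries lay above both wild types by this small margin, but the log2 fold change of 0.19 ± 0.08 did not pass (SE, adjusted p = 0.245).

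**Figure D3:**
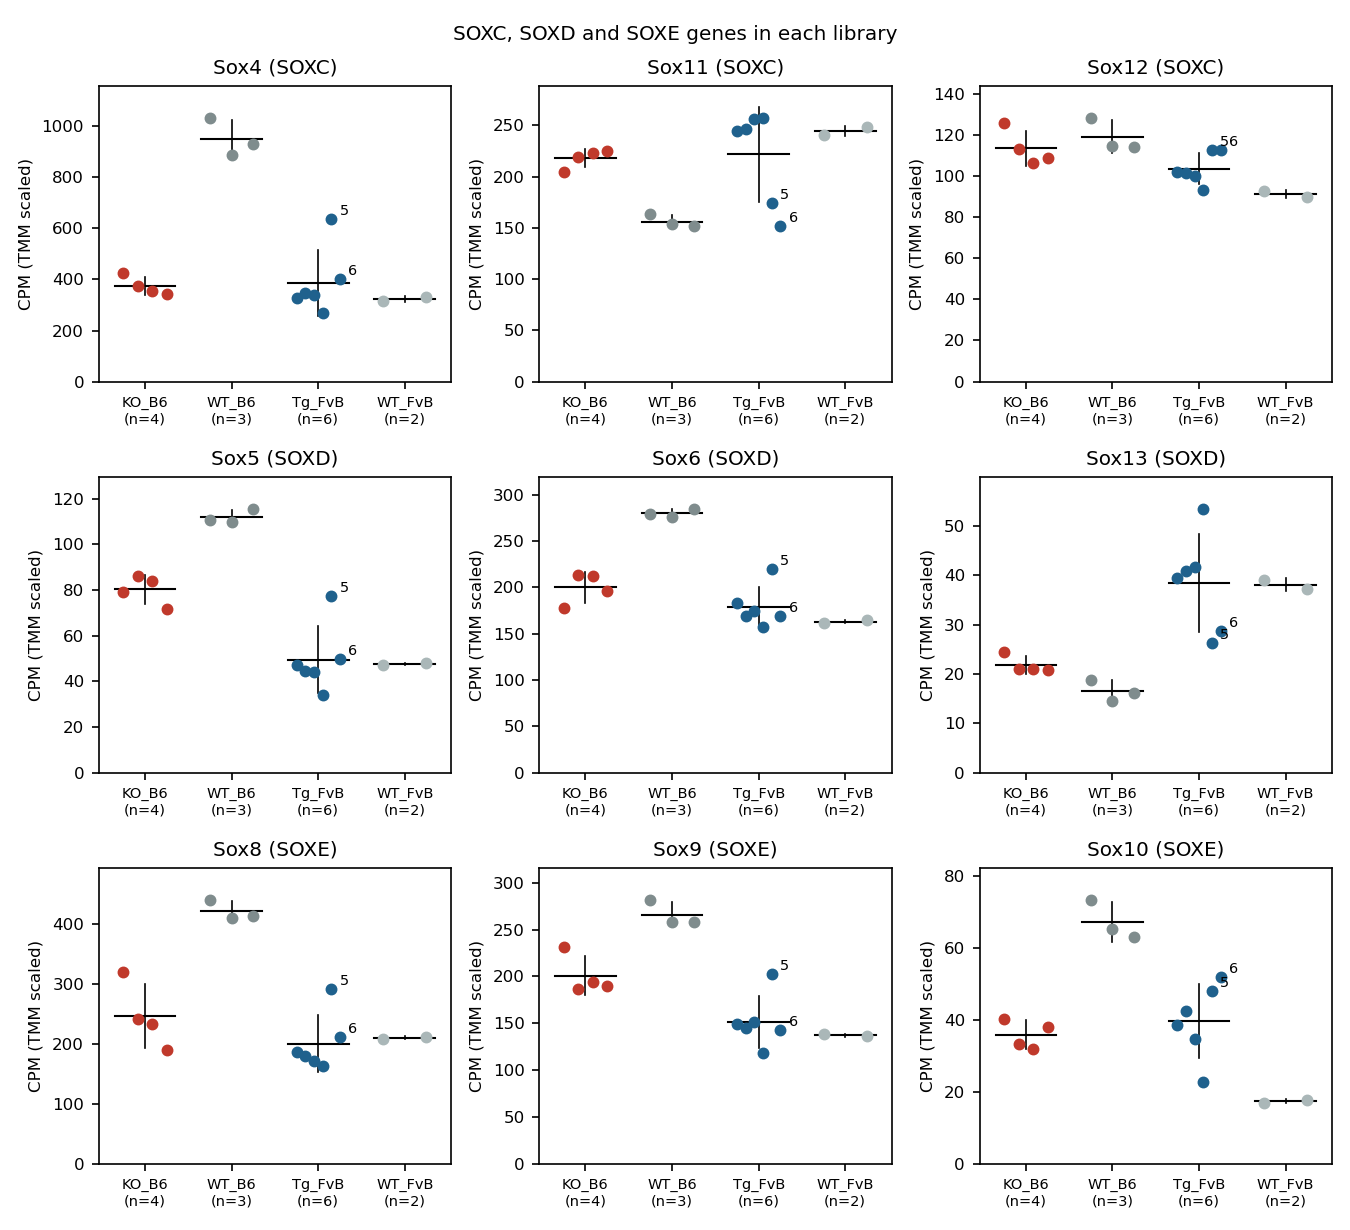
CPM of each member in every library, with the group mean as a horizontal line and its SD as a vertical line. Tg_FvB replicates 5 and 6 are numbered; for Sox4 the WT_B6 libraries lie between 887 and 1032 CPM and all KO_B6 libraries at 423 CPM or lower.

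Among the SOXD genes, Sox5 and Sox6 fell with loss of Kat6b by similar amounts, while Sox13 did not pass the test. Sox5 and Sox6 hold back the maturation of oligodendrocyte precursors, and Sox5 also shapes deep-layer cortical neurons. Sox5 stood at 79.3, 86.1, 84.0 and 71.9 CPM in KO_B6, against 111, 110.0 and 116 CPM in WT_B6. Sox6 stood at 178, 213, 212 and 196 CPM in KO_B6, against 279, 275 and 285 CPM in WT_B6. For both genes the knockout libraries lay below all controls. Log2 fold changes were -0.48 ± 0.18 for Sox5 (SE, adjusted p = 0.0379) and -0.49 ± 0.09 for Sox6 (SE, adjusted p = 0.000701). With libraries summed neither passed (adjusted p = 0.374 and 0.147). The Sox5 call was lost when litter entered the model (adjusted p = 0.105), without KO_B6 replicate 4 (0.0900), and without WT_B6 replicate 1, 2 or 4 (0.0785, 0.0628 and 0.0809). It held when only KO_B6 and WT_B6 entered the edgeR fit (adjusted p = 0.000225). The ratio of Sox6 to Sox5 per length was 2.15 ± 0.173 in KO_B6 and 2.16 ± 0.0271 in WT_B6.

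With gain of Kat6b, neither Sox5 nor Sox6 passed the test. Sox5 ranged from 34.0 to 77.3 CPM in Tg_FvB with a median of 45.9 CPM, against 47.2 and 48.0 CPM in WT_FvB. Sox6 ranged from 157 to 219 CPM in Tg_FvB with a median of 172 CPM, against 161 and 164 CPM in WT_FvB. Both groups overlapped, and replicate 5 was the highest transgenic library for both genes. The log2 fold changes were 0.06 ± 0.20 for Sox5 (SE, adjusted p = 0.897) and 0.13 ± 0.10 for Sox6 (SE, adjusted p = 0.496). Without Tg_FvB replicates 5 and 6 the Sox5 value was -0.17. The difference between loss and gain passed for Sox6, at -0.62 ± 0.14 (SE, adjusted p = 0.0034), and not for Sox5, at -0.54 ± 0.27 (SE, adjusted p = 0.124). For Sox5 it passed without Tg_FvB replicate 4 (adjusted p = 0.0393) and without replicate 5 (0.0457).

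Sox13, a subgroup member known from T cell development, had the lowest level per length in both B6 groups. It stood at 24.6, 21.0, 21.0 and 20.9 CPM in KO_B6, against 18.9, 14.4 and 16.1 CPM in WT_B6. The knockout libraries lay above all controls, but the log2 fold change of 0.41 ± 0.19 did not pass (SE, adjusted p = 0.0881). It passed when only KO_B6 and WT_B6 entered the fit (adjusted p = 0.00955), without Tg_FvB replicates 5 and 6 (0.0109) and without Tg_FvB replicate 4 (0.0394). In Tg_FvB it ranged from 26.4 to 53.5 CPM with a median of 40.2 CPM, against 39.0 and 37.2 CPM in WT_FvB. Replicates 5 and 6 were the lowest and replicate 4 was the highest, so that the transgenic libraries lay on both sides of the wild types. Its log2 fold change was 0.0036 ± 0.20 (SE, adjusted p = 0.995).

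All 3 SOXE genes fell with loss of Kat6b. Sox8 and Sox10 are known from oligodendrocyte differentiation, where Sox10 is required for myelin gene expression, and Sox9 from the switch of neural stem cells to making glia. Sox10 stood at 40.3, 33.4, 31.8 and 37.9 CPM in KO_B6, against 73.3, 65.2 and 62.9 CPM in WT_B6. Sox8 stood at 320, 241, 233 and 190 CPM in KO_B6, against 441, 409.9 and 414 CPM in WT_B6. Sox9 stood at 232, 187, 194 and 190.2 CPM in KO_B6, against 282, 258 and 258 CPM in WT_B6. In each of the 3 genes every knockout library lay below every control, and KO_B6 replicate 1 was the highest knockout library. Log2 fold changes were -0.90 ± 0.19 for Sox10 (SE, adjusted p = 0.00123), -0.78 ± 0.18 for Sox8 (SE, adjusted p = 0.00261) and -0.41 ± 0.13 for Sox9 (SE, adjusted p = 0.0178). Adding litter to the model ended the Sox9 call (adjusted p = 0.0943), as did leaving out WT_B6 replicate 1 (0.0694). The call held when only KO_B6 and WT_B6 entered the edgeR fit (adjusted p = 0.00186). With nearly identical libraries summed, Sox10 was at -0.88, Sox8 at -0.79 and Sox9 at -0.41 (adjusted p = 0.196, 0.214 and 0.374). The opposite-strand neighbour of Sox8, 2810468N07Rik, moved with it, at 29.2 CPM in KO_B6 and 68.2 CPM in WT_B6, with a log2 fold change of -1.23 ± 0.205 (SE, adjusted p = 0.000263). Its part in the Sox8 result was not tested.

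Sox10 was the one member that passed with gain of Kat6b. It ranged from 22.7 to 51.9 CPM in Tg_FvB with a median of 40.4 CPM, against 17.0 and 17.7 CPM in WT_FvB. Each of the 6 transgenic libraries lay above both wild types, with replicate 4 nearest to them and replicates 5 and 6 farthest. The log2 fold change was 1.20 ± 0.23 (SE, adjusted p = 0.0232), a ratio of means of 2.28. Without replicates 5 and 6 it was 1.00 ± 0.19 (SE, adjusted p = 0.0119). The fold change was between 1.00 and 1.31 in all 24 alternatives, but the call was lost in 5 of them. These were litter as a covariate (adjusted p = 0.144), a fit of the 2 FvB groups alone (0.134), the summed libraries (0.9995), and the fits without WT_FvB replicate 1 or 2 (0.321 and 0.310). Sox10 thus lay higher in the transgenic and lower in the knockout cells than in their own controls, and the difference of the effects was -2.11 ± 0.29 (SE, adjusted p = 0.000293).

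Neither Sox8 nor Sox9 passed with gain of Kat6b. Sox8 ranged from 163 to 291 CPM in Tg_FvB with a median of 183 CPM, against 208 and 212 CPM in WT_FvB. Sox9 ranged from 118 to 203 CPM in Tg_FvB with a median of 147 CPM, against 138 and 136 CPM in WT_FvB. In both, the wild types fell inside the range of the transgenic libraries, whose highest was replicate 5. The log2 fold changes were -0.07 ± 0.19 for Sox8 (SE, adjusted p = 0.883) and 0.14 ± 0.14 for Sox9 (SE, adjusted p = 0.607). The difference of effects was -0.71 ± 0.27 for Sox8 (SE, adjusted p = 0.0483) and -0.55 ± 0.19 for Sox9 (SE, adjusted p = 0.0343). Both of these calls were lost once litter was in the model (adjusted p = 0.223 and 0.195), and without KO_B6 replicate 2, 3 or 4, WT_B6 replicate 1 or either WT_FvB library. For Sox8 that also held without WT_B6 replicate 2 or 4 or Tg_FvB replicate 1, 2 or 6. The adjusted p without these libraries was at most 0.134 for Sox8 and 0.104 for Sox9. Per length, Sox9 exceeded Sox10 by 3.67 ± 0.298 times in KO_B6 and 2.60 ± 0.0873 times in WT_B6, and by 2.60 ± 0.548 times in Tg_FvB and 5.17 ± 0.222 times in WT_FvB.

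Litters allowed a further look, since knockouts and controls shared 2 litters, with 2 KO_B6 and 1 WT_B6 library each. Sox4 had a log2 ratio of KO_B6 to WT_B6 of -1.15 in litter 843 and -1.41 in litter 929. Sox11 was at 0.47 and 0.57, Sox6 at -0.50 and -0.48, Sox8 at -0.55 and -0.97, and Sox10 at -0.82 and -0.85. These members had the same direction in both litters, as did Sox5, Sox13 and Sox9. Sox12 was at 0.06 in litter 843 and -0.09 in litter 929. In the FvB background only litter 844 held both genotypes, with 2 libraries each. There Sox10 averaged 40.4 CPM in Tg_FvB and 17.4 CPM in WT_FvB, a log2 ratio of 1.22, and Sox4 had a ratio of 0.06. Litter 873 held transgenic libraries only, so the effect of that litter and of the transgene cannot be told apart there.

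**Figure D4:**
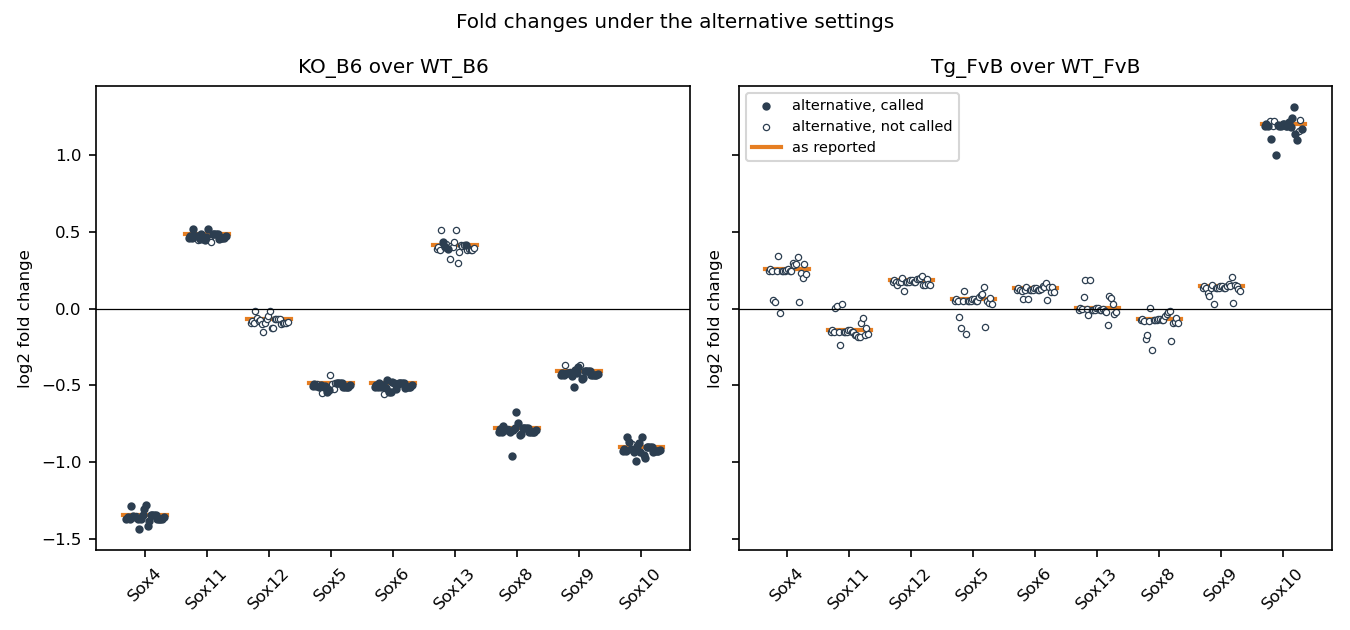
Log2 fold change of each member as reported (orange line) and under 24 alternative settings (points, filled where the adjusted p was under 0.05), KO_B6 over WT_B6 on the left and Tg_FvB over WT_FvB on the right. Sox4 and Sox10 in the knockout are well below 0 throughout, and Sox10 in the transgenic cells lies between 1.00 and 1.31.

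The wild types of the 2 backgrounds differed in all 9 members, 2 higher and 7 lower, where 48.9% of all genes passed (25.4% higher and 23.5% lower). The groups did not overlap for any of the 9, as for 78.3% of all genes (40.1% higher and 38.2% lower). Sox11 and Sox13 were higher in WT_FvB than in WT_B6, with log2 fold changes of 0.65 ± 0.18 (SE, adjusted p = 0.00727, but 0.0514 without WT_FvB replicate 2) and 1.22 ± 0.22 (SE, adjusted p = 0.000549). The other 7 were lower, from -0.38 ± 0.09 for Sox12 to -1.95 ± 0.25 for Sox10 (SE, adjusted p = 0.00314 and 6.89e-05). Sox4 was at -1.55 ± 0.26 and Sox5 at -1.24 ± 0.23. Background and culture cannot be told apart in this comparison. Litter was set apart only by taking the shared litter number of WT_B6 replicate 1 and the WT_FvB libraries at face value, in a fit added after seeing the data. In that fit 8 of the 9 passed and Sox11 did not (0.58 ± 0.26 SE, adjusted p = 0.113). With nearly identical libraries summed, 0 of the 9 passed (adjusted p = 0.153 to 0.282). Each wild type is 1 profile in that sum, so its spread comes only from KO_B6 and Tg_FvB. The comparison of the wild types shares the WT_B6 libraries with the knockout comparison, so the 2 sets of values are not independent. Side by side, WT_FvB over WT_B6 and KO_B6 over WT_B6 gave -1.55 and -1.34 for Sox4, 0.65 and 0.48 for Sox11, -0.38 and -0.07 for Sox12, and -1.24 and -0.48 for Sox5. They gave -0.78 and -0.49 for Sox6, 1.22 and 0.41 for Sox13, -1.005 and -0.78 for Sox8, -0.96 and -0.41 for Sox9, and -1.95 and -0.90 for Sox10.

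Likeness between genes was measured over the 15 libraries as the root mean square difference of log2 CPM after centring each gene on its mean. The libraries share depth, background and litters, so likeness is a description. Among the members, Sox6 and Sox9 were the most alike (0.17), followed by Sox8 and Sox9 (0.19), and Sox5 and Sox13 were least alike (1.09). Of 10671 candidate genes, Fam102a and Il17rd were nearest to Sox4 (both 0.14), against a median of 0.64 over all candidates. Txnrd1 (0.075) and Smad5 (0.089) were nearest to Sox11, and Fam222b and Zbtb22 to Sox12 (both 0.058). Sez6 (0.12) and Chrna4 (0.13) were nearest to Sox5, Cecr2 (0.056) and Stox2 (0.068) to Sox6, and Cox18 (0.15) and Slc13a3 (0.16) to Sox13. Tshz2 and Accs were nearest to Sox8 (both 0.13), Acaa1a (0.094) and Pcdh11x (0.098) to Sox9, and Plppr1 (0.16) and Inava (0.17) to Sox10.

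Genes of the lineages in which these factors are known to act were also examined. Of 12 oligodendrocyte lineage genes, 1 rose and 4 fell in KO_B6, with a median log2 fold change of -0.57, beside the 24.8% higher, 20.9% lower and median of 0.02 over all genes. Gpr17, a receptor of committed precursors, averaged 136 CPM in KO_B6 and 416 CPM in WT_B6, with a log2 fold change of -1.61 (adjusted p = 0.000273). Myrf, the regulator of myelin genes, was at -1.27 and the myelin enzyme gene Cnp at -1.43 (adjusted p = 0.000118 and 4.98e-06). Olig2, a lineage regulator, was the 1 that rose, at 0.57 (adjusted p = 0.000124). In Tg_FvB, 1 of the 12 rose and 0 fell, beside 0.688% higher and 1.17% lower over all genes. This was Gpr17, at 187 CPM in Tg_FvB and 74.4 CPM in WT_FvB, with a log2 fold change of 1.33 (adjusted p = 0.0481). Over all genes, 283 passed for gain, but only 10 with litter in the model and 10 with only the FvB groups. Whether the lineage calls for gain, here and below, hold in these fits was not tested. Few calls for gain over all genes remained when either WT_FvB library was left out, which leaves a single control library.

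Of 10 neuronal genes, 0 rose and 5 fell in KO_B6, with a median log2 fold change of -0.42, against 24.8% higher, 20.9% lower and a median of 0.02 over all genes. The neuronal tubulin gene Tubb3 was at -1.51 and the neuroblast gene Dcx at -1.47 (adjusted p = 0.000109 and 0.000543). Tubb3 averaged 8.79 CPM in KO_B6 and 25.1 CPM in WT_B6. Draxin, a guidance molecule, averaged 48.4 CPM in KO_B6 and 231 CPM in WT_B6, at -2.26 (adjusted p = 0.000111). Map2, the most abundant gene of the list, did not pass, at 1068 CPM in KO_B6 and 1061 CPM in WT_B6. Its log2 fold change was 0.01 (edgeR adjusted p = 0.924). Tead2, Eomes, Stmn2 and Rbfox3 did not pass with loss either. In Tg_FvB, 2 of the 10 rose and 0 fell, against 0.688% and 1.17% of all genes, namely Elavl3 at 0.61 and Rbfox3 at 2.57 (adjusted p = 0.0392 and 0.0427), the second of which averaged 2.06 CPM in Tg_FvB and 0.358 CPM in WT_FvB.

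Cartilage genes are known targets of Sox9 with Sox5 and Sox6. Of 10 genes 8 passed the filter, and in KO_B6 2 rose and 4 fell, against 24.8% higher and 20.9% lower over all genes. The median of the 8 was -0.59, against 0.02 over all genes. The 2 that rose were Acan, the cartilage proteoglycan gene, at 1.503 (adjusted p = 0.00838), and the collagen gene Col9a3 at 0.35 (adjusted p = 0.0450). Acan averaged 1.08 CPM in KO_B6 and 0.390 CPM in WT_B6, and Col9a3 averaged 56.6 CPM in KO_B6 and 44.5 CPM in WT_B6. Col2a1, the major cartilage collagen, averaged 0.976 CPM in KO_B6 and 2.19 CPM in WT_B6, at -1.19 (adjusted p = 0.0110). Col9a1 averaged 5.14 CPM in KO_B6 and 10.00 CPM in WT_B6, at -0.96 (adjusted p = 0.0301), and 4.79 CPM in Tg_FvB and 1.14 CPM in WT_FvB, at 2.10 (adjusted p = 0.0424). Col9a1 was the 1 cartilage gene that passed with gain.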

How the data were processed

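The deposited files hold raw counts per gene for each library, made by the authors with bcl2fastq and featureCounts on mm10, per the submitters' processing notes. The other deposited column is a gene length in bases, used here for CPM per kb. Library kit and 66 bp paired reads are per the labels. Aligner, annotation, versions and strand settings are not recorded in the labels or notes at hand. Entries with no gene name (917 per file, 0.450% to 0.545% of counts) were left out.

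Groups follow the genotype and background fields. Counts of all 15 libraries were tested with the quasi-likelihood F-test of edgeR 4.0.16 (limma 3.58.1, R 4.3.3), with 1 coefficient per group, TMM scaling, filterByExpr with a minimum count of 10 and Benjamini-Hochberg adjustment over 15261 genes. A gene was called at an adjusted p under 0.05. SEs were derived from the F statistic. The code was tested on simulated data. DESeq2 1.42.0 was an alternative, and the closing section gives the others. Counting error is small at these depths, since no member had fewer than 287 counts in a library.

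The text names all 9 members, Kat6b, the 2 genes most like each member (mean of at least 5 CPM) and genes of the listed lineages. The lineage examples were chosen after their values were seen, and the members and lists were chosen with earlier results of these data known.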

Additional observations from a re-analysis of the deposited data

Results flagged for a closer look

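In groups of 4 or more libraries, 18 combinations of member and group were examined for a library far from the rest. Of these, 4 had one. Chance gives about 1 in 20 where libraries and genes are independent. Here some libraries were nearly identical, and the 4 came from KO_B6 replicate 1 and Tg_FvB replicate 5 only. So 4 of 18 cannot be set against that rate. Sox13 in KO_B6 replicate 1 was at 24.6 CPM and Sox9 in the same library at 231.5 CPM, each above the other 3 knockout libraries. Sox4 in Tg_FvB replicate 5 was at 636.3 CPM and Sox5 in the same library at 77.3 CPM, each above the other 5 transgenic libraries. The count column of that library is headed as a wild type. Kat6b was at 139.6 CPM or more in every Tg_FvB library, and at 54.4 CPM or less in WT_FvB.

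The effects of loss and gain of Kat6b differed in 6 members by the test of the difference itself. The effect of loss minus the effect of gain was, on the log2 scale, -1.60 for Sox4, 0.62 for Sox11, -0.62 for Sox6, -0.71 for Sox8, -0.55 for Sox9 and -2.11 for Sox10. The 2 effects were measured on different genetic backgrounds, so a difference between loss and gain and one between backgrounds cannot be told apart.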

How the results depend on the processing

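Of 855 member values under 25 alternatives, 755 kept their direction and side of the threshold, 66 lost the call, 10 gained one and 24 changed sign, all 24 in the comparison of Tg_FvB with WT_FvB and none of them called. Summing nearly identical libraries left 5 genes for loss, 0 for gain, 0 for the difference and 0 for the wild types, and 0 members in each (edgeR unadjusted p under 0.05 for 2803 and 3706 genes in the difference and the wild types). For gain, 283 genes became 722 with DESeq2, 10 with litter, 10 with only the FvB groups and 638 without Tg_FvB replicates 5 and 6 together, and the 1 member became 0 with litter and with only the FvB groups. For the difference, litter left 2862 genes and 3 members. Leaving out 1 library gave 5550 to 7528 genes and 5 to 8 members for loss, 2 to 1763 genes and 0 to 1 member for gain, 3598 to 6760 genes and 3 to 8 members for the difference, and 5055 to 7933 genes and 8 to 9 members for the wild types. For gain, the extremes came without WT_FvB replicate 1 or 2 (2 genes each) and without Tg_FvB replicate 4. Signs changed for Sox13 with RLE (-0.0063), DESeq2 (-0.0022), the FvB groups alone (-0.0056), summed libraries (-0.041), unscaled totals (-0.023, chosen after seeing the data) and in leave-one-out fits (-0.108 to 0.079). They changed for Sox11 with litter (0.0044) and without Tg_FvB replicates 5 and 6 (0.029), for Sox5 with litter (-0.053), without those 2 (-0.17) and in leave-one-out fits (-0.119 without Tg_FvB replicate 5, to 0.14), for Sox8 with summed libraries (0.0037) and for Sox4 without those 2 (-0.026). The causes were not tested, though the sums hold fewer libraries.

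Replicate numbers did not pair libraries (r = -0.024 to -0.011 in B6, 0.081 and 0.0032 in FvB), though 4 of 5 same-numbered pairs share a litter. With the replicate block, 7587, 333, 5703 and 8076 genes and 8, 1, 8 and 9 members passed for loss, gain, the difference and the wild types. Sox13 passed for loss (adjusted p = 0.00817), Sox12 and Sox5 for the difference (0.0380 and 0.0367), and Sox11 (0.017) and Sox5 (-0.13) changed sign for gain. Litter within background gives no value between the wild types; with litter numbers shared across backgrounds (added after seeing the data) 3903 genes and 8 members passed there. A fit of only the groups compared does not apply to the difference. Depth limits no member.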

Other observations

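Astrocyte genes were examined because SOXE factors are known from glia. Of 12 genes, 0 rose and 8 fell in KO_B6, with a median log2 fold change of -1.03, against 20.9% of all genes lower and a median of 0.02. Apcdd1 and Mmd2, known in the mouse spinal cord as genes downstream of Sox9 and Nfia, were at -1.97 and -1.63 (edgeR adjusted p = 3.12e-06 and 2.79e-05). The water channel gene Aqp4 was at -1.49 (adjusted p = 6.26e-06), at 34.3 CPM in KO_B6 and 96.5 CPM in WT_B6. Slc1a3, the most abundant gene of the list, did not pass, at 1686 CPM in KO_B6 and 1713 CPM in WT_B6 (-0.02). Slc1a2, Nfia and Nfib did not pass with loss either (0.12, -0.05 and -0.28). In Tg_FvB, 0 of the 12 rose and 3 fell, against 0.688% and 1.17% of all genes, namely Gfap, Aqp4 and S100b, at -2.18, -0.93 and -0.68 (adjusted p = 0.0440, 0.00979 and 0.0309). Aqp4 was thus lower than its own control with loss and with gain, as were Gfap (-2.43 with loss, adjusted p = 0.00308) and S100b (-0.61 with loss, adjusted p = 0.00219). All 3 calls with gain were lost when either WT_FvB library was left out, which leaves a single control library. Over all genes, 283 passed for gain, but 10 with litter in the model and 10 with only the FvB groups.

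Of 10 neural crest, Schwann cell and melanocyte genes, 5 passed the filter. Foxd3 was at 0 in every library. In KO_B6 0 rose and 2 fell, Ednrb at -0.95 and Pmel at -0.59 (adjusted p = 3.1e-05 and 0.0124), and in Tg_FvB 0 passed. Over all genes 24.8% were higher and 20.9% lower in KO_B6, and 1.85% passed in Tg_FvB. Of 10 SOX genes of other subgroups, 5 passed the filter, and in KO_B6 0 rose and 4 fell, beside the same shares over all genes. Sox21 was at -0.97, Sox1 at -0.60, Sox2 at -0.56 and Sox3 at -0.27 (adjusted p = 0.000203, 1.71e-05, 0.00772 and 0.0149). In Tg_FvB 1 of the 5 rose, Sox1 at 0.31 (adjusted p = 0.0488).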
